A study of Mus musculus with 5 samples.

Results

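The genes described here encode the nuclear subunits of the mitochondrial respiratory chain and of ATP synthase. They were chosen by symbol among protein-coding genes of the count table, without use of their measured values: symbols that begin with Nduf and a subunit letter, Sdha to Sdhd, Uqcr, Cyc1, Cox4 to Cox8 or Atp5, without the assembly factors of the Ndufaf and Sdhaf families. This gave 86 of 39056 genes: 38 of complex I, 4 of complex II, 9 of complex III, 18 of complex IV and 17 of ATP synthase. RNA came from haematopoietic stem and progenitor cells of mice at postnatal day 15, sorted as the Lin-Sca-1+Kit+ (LSK) fraction of bone marrow, with about 12000 cells per library. 3 libraries came from Gabbr1 null mutant mice and 2 from wild-type (WT) mice, all on a C57BL/6 background. Gabbr1 codes for GABA-B1, the part of the metabotropic GABA receptor that binds its ligand. The design text gives these numbers, while the labels' protocol speaks of 4 mice of each genotype. The sources used here name neither the deleted part of the gene, nor the sex of the mice, nor the number of mice behind a library. The spread behind each p-value is therefore one between libraries and may be partly technical. Null library 1 alone had many counts of Xist, a transcript of female cells, as given below. The comparison asks whether loss of this receptor subunit alters transcript levels in blood progenitors.

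The respiratory chain passes electrons from NADH (complex I) and succinate (complex II) through ubiquinone, complex III and cytochrome c to oxygen at complex IV, and the proton gradient made on the way drives ATP synthase. Most subunits are encoded in the nucleus, and a few core subunits of complexes I, III, IV and ATP synthase are encoded by mitochondrial DNA. Quiescent stem cells are known for a low reliance on respiration, which increases as progenitors cycle and differentiate.

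Total counts were 7792271, 7530382 and 8150774 in null libraries 1, 2 and 3, and 7980630 and 6972753 in WT libraries 1 and 2, so that 1 CPM (counts scaled to a common library size with TMM factors) stood for 7.02 to 8.13 counts. Gabbr1 itself was at 35.5 ± 2.79 CPM in null libraries (SD, n = 3) and 53.4 ± 5.60 CPM in WT libraries (SD, n = 2), a difference of -0.59 ± 0.13 on the log2 scale (SE, adjusted p = 0.0361 in edgeR). It was past the threshold of 0.05 and lost the call without null library 2, null library 3 or either WT library. Counts cover the whole gene and the deleted part is not given, so this neither checks nor contradicts the labels. The sort gene Kit was at 864, 987 and 883 CPM in null libraries and 995 and 1049 CPM in WT libraries. The other sort gene, Ly6a, was at 29.9, 12.9 and 24.0 CPM in null libraries and 26.8 and 30.3 CPM in WT libraries. Null library 2 stood apart from the other 4 libraries for short transcripts, as described below, and the group medians and the fold changes of several genes are also given without it. Markers of other cell types also differed between libraries. All 8 B lineage markers rose in null, and their sum was 817, 480 and 780 CPM in null and 150 and 66.9 CPM in WT, while none of 6 tested mature neutrophil markers passed and the sum of 7 was 2194, 585 and 131 CPM in null and 142 and 106 CPM in WT. Of 9 endothelial and stromal markers 6 rose, with a sum of 351, 362 and 267 CPM in null and 166 and 177 CPM in WT, and of 5 cartilage markers the 3 tested rose, with a sum of 146, 125 and 20.0 CPM in null and 0.492 and 0.854 CPM in WT, with Sox9 at 0 in every library. Their part in the results was not tested, and in bulk RNA fewer cells of a type and less RNA per cell cannot be told apart.

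The summed level of the subunit genes differed between genotypes by less than the spread between libraries. Summed over all 86 genes, their level was 7242, 6273 and 7781 CPM in null libraries 1, 2 and 3, and 7293 and 6888 CPM in WT libraries 1 and 2. The null values lay on both sides of the WT values, and the means were 7098 ± 764 CPM in null (SD, n = 3) and 7091 ± 286 CPM in WT (SD, n = 2). These genes took 0.698%, 0.631% and 0.774% of all counts in null libraries and 0.743% and 0.694% in WT libraries. ATP synthase genes gave the largest sum, 2774 ± 229 CPM in null and 2723 ± 45.0 CPM in WT, ahead of complex I with 2035 ± 248 CPM in null and 2048 ± 124 CPM in WT. Complex IV genes summed to 1057 ± 163 CPM in null and 1076 ± 72.9 CPM in WT. Complex III genes summed to 753 ± 91.9 CPM in null and 770 ± 35.3 CPM in WT. Complex II genes summed to 480 ± 34.6 CPM in null and 473 ± 8.68 CPM in WT. In every complex the null and WT libraries overlapped, and null library 2 had the lowest sum of the 5 libraries.

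**Figure D1:**
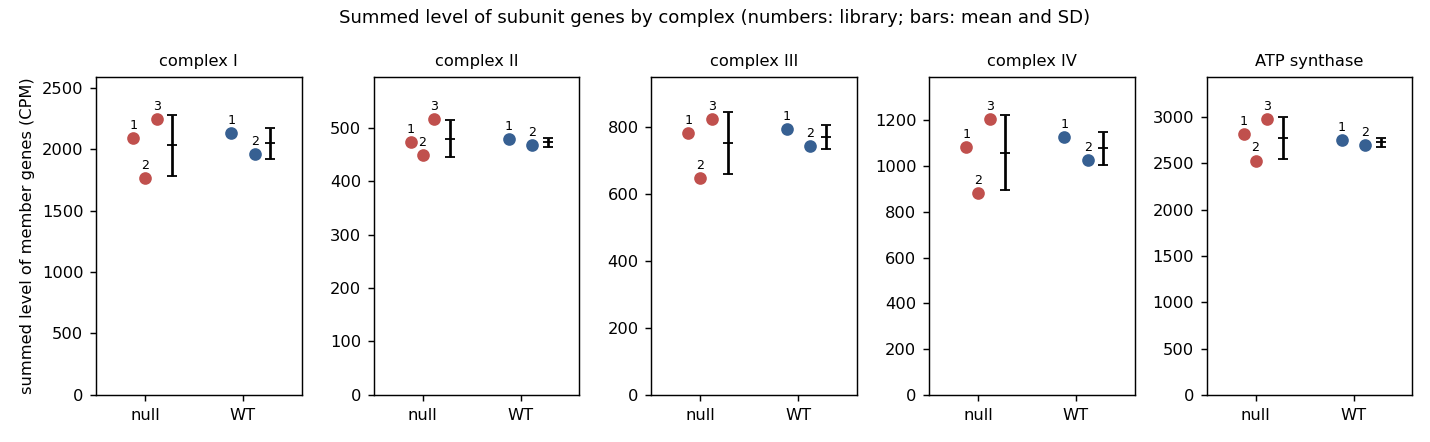
Summed level of the subunit genes of each complex in CPM (y axes from 0), with 1 numbered point per library (null left, WT right) and the mean with SD beside them. In every panel null library 2 is the lowest point and the WT points lie within the range of the null points; for complex I the null points are 2091, 1763 and 2250 CPM and the WT points 2136 and 1960 CPM.

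Of the 86 genes, 81 had enough counts to be tested, and none was higher or lower in null (edgeR quasi-likelihood test, adjusted p under 0.05), where 2.15% of all 13467 genes tested were higher and 0.334% lower (2.48% in either direction). None had an unadjusted p under 0.05, against 12.8% of all genes tested, and none was called by DESeq2, which called 2.5% of all genes higher and 0.379% lower, or by limma-voom, which called 1.62% higher and 0.26% lower. The smallest adjusted p was 0.527. The median log2 fold change over the 81 genes was -0.018, beside -0.0045 over all genes tested, with 33 positive and 48 negative values. The median was -0.018 for complex I, 0.050 for complex II, -0.086 for complex III, -0.030 for complex IV and 0.017 for ATP synthase. Standard errors ranged from 0.10 to 0.63 with a median of 0.15, and these set what the design could show. The 95% interval of the fold change lay within 1.5-fold in either direction for 65 of the 81 genes and within 2-fold for 78. The 3 whose interval reached beyond 2-fold were Ndufa1, Cox4i2 and Cox6a2. In 6 of the 81 genes the null and WT libraries did not overlap, 3 with null higher (Ndufa9, Ndufs1 and Uqcrfs1) and 3 with null lower (Ndufb2, Ndufb10 and Cyc1). Over all genes tested, the libraries did not overlap in 29.2%, with null higher in 15.5% and lower in 13.7%.

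**Figure D2:**
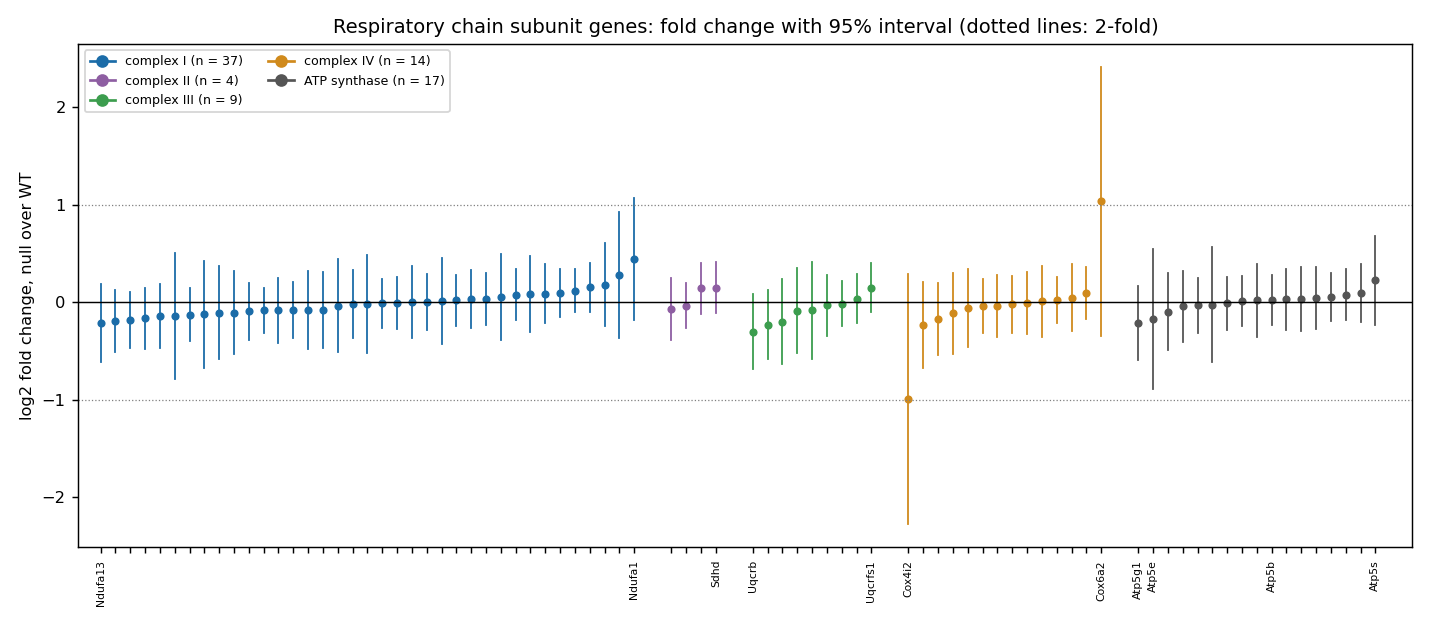
Log2 fold change of null over WT for the 81 tested subunit genes (y axis), sorted within each complex and labelled for some genes named in the text, with 95% intervals from the edgeR fit as vertical lines and dotted lines at 2-fold. Every interval spans 0, the medians of the complexes lie between -0.086 and 0.050, and the widest intervals belong to Cox4i2 and Cox6a2, which had few counts.

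Per length, levels of the 81 tested genes ran between 2.25 CPM per kb of exons for Cox6a2 and 232 for Atp5a1, as means of the 5 libraries. Per kb of exons the 3 F1 genes of ATP synthase led: Atp5a1 (alpha subunit) at 232 CPM per kb, Atp5b (the catalytic beta subunit) at 171 and Atp5c1 (the gamma subunit of the central stalk) at 167. Atp5b (chromosome 10, 128083273 to 128090391, mm10) was at 711, 721 and 758 CPM in null libraries and 699 and 741 CPM in WT libraries. Its null and WT values overlapped, and the log2 fold change was 0.020 ± 0.12 (SE, adjusted p = 0.971 in edgeR). Atp5a1 was at 725, 714 and 790 CPM in null libraries and 682 and 728 CPM in WT libraries. Complex IV followed with Cox4i1 at 127, Cox6a1 at 113 and Cox8a at 109 CPM per kb, all subunits that surround the mitochondrially encoded core. Uqcrh, the hinge protein of complex III, was at 112 CPM per kb. The highest complex I genes were Ndufc2 at 96.7, Ndufa4 at 90.9 and Ndufa2 at 80.4 CPM per kb; Ndufa4 carries a complex I name but its protein is now placed in complex IV. The highest complex II gene was Sdhd, a membrane anchor, at 61.4 CPM per kb, beside 59.2 for the flavoprotein gene Sdha. The length used moves some ranks. Atp5l was at 4.68 CPM per kb of all its exons but at 55.4 CPM per kb of its principal transcript, and Cox6c ranked 34 on the first scale and 6 on the second. On the second scale Sdha at 84.3 and Sdhb at 82.5 stood above Sdhd at 61.4. Ndufb8 at 118 likewise stood above Ndufc2 at 107 and Ndufa2 at 80.4. Atp5b was first and Atp5a1 second per kb of principal transcript.

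The promoters of these genes are known for sites of the nuclear respiratory factors, NRF1 and the ETS factor GABP, and the upstream sequence of 67 of the 86 genes was found in RefSeq (GRCm38.p6). In the 250 bases before the RefSeq start, the NRF1 letters, GCGC and TGCGC with 1 base of any kind between them, occurred on either strand in 13 of the 67 genes (19.4%) and in 5.84% of 17491 protein-coding genes. The ETS core CCGGAAG, on either strand, occurred in 12 of the 67 (17.9%) and in 10.2% of protein-coding genes. The YY1 letters AAGATGGC occurred in 1.49% of the 67 and 1.77% of protein-coding genes, and CCAAT in 43.3% of the 67 and 39.5% of protein-coding genes, both on either strand. The protein-coding genes compared were taken whether or not they were read in these cells, and base content was not matched. A match of letters is a description and not a site. Cox6a1, Sdhd and Atp5h are shown because they held both kinds of letters, Sdha because it held the NRF1 letters 3 times, as did Ndufb4, which is not shown, and Cox6b1 and Cox6b2 because both paralogues were read in LSK cells while only Cox6b1 held either. Each is written 5′ to 3′ on the gene's strand, with capitals for the NRF1 and ETS letters:
Sdha (chr13:74350241-74350490, - strand): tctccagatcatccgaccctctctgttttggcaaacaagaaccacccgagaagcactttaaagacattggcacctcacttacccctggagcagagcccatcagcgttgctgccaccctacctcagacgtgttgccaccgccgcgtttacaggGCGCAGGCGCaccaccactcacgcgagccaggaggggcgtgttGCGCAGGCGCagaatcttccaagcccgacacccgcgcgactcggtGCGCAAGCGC
Sdhd (chr9:50603850-50604099, - strand): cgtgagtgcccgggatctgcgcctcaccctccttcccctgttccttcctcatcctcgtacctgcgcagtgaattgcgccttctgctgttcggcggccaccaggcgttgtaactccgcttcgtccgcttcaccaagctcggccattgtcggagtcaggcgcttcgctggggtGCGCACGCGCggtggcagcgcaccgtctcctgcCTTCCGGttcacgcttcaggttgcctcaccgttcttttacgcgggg
Cox6a1 (chr5:115348959-115349208, - strand): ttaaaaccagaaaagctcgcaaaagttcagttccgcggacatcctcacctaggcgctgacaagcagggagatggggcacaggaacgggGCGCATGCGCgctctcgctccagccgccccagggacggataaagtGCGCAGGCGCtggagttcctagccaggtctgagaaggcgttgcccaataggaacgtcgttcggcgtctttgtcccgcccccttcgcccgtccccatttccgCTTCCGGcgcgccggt
Atp5h (chr11:115419920-115420169, - strand): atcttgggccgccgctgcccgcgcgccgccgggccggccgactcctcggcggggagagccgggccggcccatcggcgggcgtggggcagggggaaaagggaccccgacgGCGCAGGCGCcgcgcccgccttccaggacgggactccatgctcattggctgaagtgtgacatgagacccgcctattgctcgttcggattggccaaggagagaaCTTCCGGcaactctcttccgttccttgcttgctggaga
Cox6b1 (chr7:30626115-30626364, - strand): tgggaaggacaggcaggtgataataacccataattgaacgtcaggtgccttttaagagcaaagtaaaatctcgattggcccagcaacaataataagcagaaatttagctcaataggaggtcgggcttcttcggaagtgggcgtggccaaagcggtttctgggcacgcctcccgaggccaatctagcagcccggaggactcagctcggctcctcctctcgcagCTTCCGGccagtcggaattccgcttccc
Cox6b2 (chr7:4753095-4753344, - strand): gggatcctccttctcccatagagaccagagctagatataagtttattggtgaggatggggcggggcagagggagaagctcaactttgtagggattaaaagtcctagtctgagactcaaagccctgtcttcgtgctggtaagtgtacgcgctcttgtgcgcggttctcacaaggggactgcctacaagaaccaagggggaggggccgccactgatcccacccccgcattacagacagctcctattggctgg
In the GENCODE annotation Sdha, Cox6a1, Atp5h and Cox6b1 begin inside these windows, at 74350280, 115348981, 115419962 and 30626151. The last NRF1 letters of Sdha and the ETS letters of Cox6a1, Atp5h and Cox6b1 lie within the gene by those starts. None of the 6 genes shown passed the test between genotypes. Of the factors themselves, Nrf1 was at 91.4, 89.5 and 88.5 CPM in null libraries and 93.3 and 92.9 CPM in WT libraries, a log2 fold change of -0.052 ± 0.10 (SE, adjusted p = 0.897 in edgeR). Gabpa, the DNA-binding subunit of GABP, was at 80.9, 88.9 and 97.9 CPM in null libraries and 84.9 and 67.2 CPM in WT libraries (edgeR log2 fold change 0.23 ± 0.13 SE, with an adjusted p of 0.515); its exons overlap those of Atp5j, and the strand setting of the counting is not given.

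Complex I takes electrons from NADH in its matrix arm. Its 31 accessory genes, those with a complex I name outside the catalytic core, summed to 1510, 1221 and 1624 CPM in null libraries and 1553 and 1388 CPM in WT libraries, lowest in null library 2. The highest fold change of complex I was that of Ndufa1 (chromosome X, 37187588 to 37191163), a small membrane arm subunit. It was at 13.9, 7.65 and 16.0 CPM in null libraries 1, 2 and 3 and 9.60 and 8.83 CPM in WT libraries 1 and 2. 2 null libraries were above both WT libraries and null library 2 was below both, and the log2 fold change was 0.44 ± 0.29 (SE, 95% interval -0.19 to 1.07, edgeR adjusted p = 0.585), or 0.70 ± 0.22 without null library 2 (SE, edgeR adjusted p = 0.167). Xist, the transcript of X inactivation, had 22532 counts in null library 1 and at most 21 in each of the others. Xist is made in female cells, so null library 1 held such cells and the others held few or none. Any part of this in the Ndufa1 values was not tested. Of the other X-linked members, Ndufb11 was at 64.2, 45.0 and 72.0 CPM in null and 62.8 and 51.3 CPM in WT, and Cox7b at 59.4, 45.4 and 73.6 CPM in null and 70.3 and 53.7 CPM in WT. Of the core genes, Ndufs1, the largest iron-sulfur subunit, was at 95.4, 97.0 and 99.0 CPM in null libraries and 92.3 and 86.9 CPM in WT libraries. Ndufa9, which sits where the matrix and membrane arms meet, was at 53.2, 54.8 and 57.2 CPM in null libraries and 50.6 and 48.6 CPM in WT libraries. For both, every null library was above both WT libraries, and neither passed the test. The opposite order held for the accessory genes Ndufb10, at 49.0, 42.1 and 50.8 CPM in null libraries and 51.1 and 52.5 CPM in WT libraries, and Ndufb2, at 35.2, 33.5 and 34.6 CPM in null libraries and 40.9 and 37.2 CPM in WT libraries. The lowest fold change of complex I was that of Ndufa13, also known as Grim-19, at 31.2, 20.9 and 29.1 CPM in null libraries and 33.4 and 29.3 CPM in WT libraries (edgeR log2 fold change -0.21 ± 0.18 SE, with an adjusted p of 0.703), or -0.053 ± 0.17 SE without null library 2.

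Complex II, the succinate dehydrogenase that also serves the TCA cycle, has no mitochondrially encoded subunit. Sdha was at 233, 239 and 253 CPM in null libraries and 248 and 249 CPM in WT libraries, a range of values that overlapped. Its iron-sulfur partner Sdhb was at 94.7, 88.9 and 110 CPM in null libraries and 92.7 and 85.0 CPM in WT libraries. Of the membrane anchors, Sdhd was at 77.1, 71.9 and 86.9 CPM in null libraries and 75.4 and 66.6 CPM in WT libraries, and Sdhc at 68.8, 49.1 and 67.4 CPM in null libraries and 63.4 and 66.4 CPM in WT libraries. The log2 fold changes of the 4 genes lay between -0.07 and 0.15, and all 4 intervals lay within 1.5-fold.

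Complex III passes electrons from ubiquinol to cytochrome c. Uqcrb, a small subunit next to the ubiquinone site (chromosome 13, 66900617 to 66905378), had the smallest adjusted p of all 81 genes. It was at 36.1, 29.6 and 40.6 CPM in null libraries 1, 2 and 3 and 51.1 and 36.2 CPM in WT libraries 1 and 2. WT library 1 was above every other library, and WT library 2 lay within the null range. The log2 fold change was -0.30 ± 0.18 (SE, 95% interval -0.69 to 0.082, edgeR adjusted p = 0.527), or -0.18 ± 0.18 SE without null library 2. Neither redox subunit passed. Cyc1, cytochrome c1 (chromosome 15, 76343523 to 76346260), was at 43.4, 30.2 and 42.7 CPM in null libraries and 47.0 and 44.0 CPM in WT libraries (edgeR log2 fold change -0.23 ± 0.16 SE, with an adjusted p of 0.615), or -0.076 ± 0.14 SE without null library 2. Uqcrfs1, the Rieske iron-sulfur protein (chromosome 13, 30540308 to 30545362), was at 106, 98.7 and 121 CPM in null libraries and 98.2 and 98.7 CPM in WT libraries (edgeR log2 fold change 0.14 ± 0.12 SE, with an adjusted p of 0.677). The core proteins Uqcrc1 and Uqcrc2 together were at 324, 307 and 337 CPM in null and 320 and 324 CPM in WT. The 5 small subunits together were at 309, 214 and 324 CPM in null and 329 and 278 CPM in WT, where null library 2 was lowest for each of the 5. Uqcrh was at 149, 111 and 154 CPM in null libraries and 153 and 129 CPM in WT libraries. Uqcr10 was at 57.2, 30.2 and 58.2 CPM in null libraries and 56.2 and 46.7 CPM in WT libraries. In both genes the other null libraries lay above WT library 2 and close to WT library 1.

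Complex IV includes subunits with tissue isoforms, and for most of them the ubiquitous form held nearly all counts. Cox4i1, the regulatory subunit found in most tissues, was at 199, 169 and 215 CPM in null libraries and 215 and 183 CPM in WT libraries. Its isoform Cox4i2, known from lung and from oxygen sensing (chromosome 2, 152754173 to 152765037), had 17, 8 and 6 counts in null libraries and 12 and 28 counts in WT libraries. It made up 1.13%, 0.622% and 0.342% of Cox4 counts in null libraries and 0.681% and 2.13% in WT libraries. The groups overlapped, WT library 2 was the highest, and the log2 fold change was -0.996 ± 0.59 (SE, edgeR, adjusted p of 0.535). Cox6a2, the heart and muscle form of subunit 6a (chromosome 7, 128205435 to 128206387), had 20, 18 and 6 counts in null libraries and 7 and 7 counts in WT libraries, beside 566, 489 and 767 counts of Cox6a1 in null and 645 and 569 in WT. 2 null libraries were above WT and null library 3 was below, and the log2 fold change was 1.03 ± 0.63 (SE, edgeR, adjusted p of 0.553). Exons of Cox6a2 overlap those of Itgad. The 8 striated muscle markers summed to 9.86, 8.71 and 10.4 CPM in null and 9.48 and 9.26 CPM in WT, with Mb at 0 in every library. Of the 4 tested, none passed: Mylpf was at 5.06, 2.77 and 5.55 CPM in null and 2.71 and 1.85 CPM in WT, with an unadjusted p of 0.0434, while Tnnt3 and Acta1 had negative log2 fold changes (-0.80 and -0.83). Cox7a1, another muscle form, had 0 to 4 counts per library. Cox7b2, Cox8b and Cox8c had no count in any library. For Cox8b this allows up to 0.562%, 0.693% and 0.503% of the Cox8 counts in null libraries and 0.5% and 0.680% in WT libraries (3 counts of the total, for counting error only). Ndufa4l2, known as induced by hypoxia, had 1 count, in null library 2.

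1 form described as testis-specific was not rare. Cox6b2 (chromosome 7, 4751792 to 4753094) had 191, 157 and 220 counts in null libraries and 243 and 178 counts in WT libraries. Cox6b1 had 414, 229 and 380 counts in null libraries and 455 and 333 counts in WT libraries. Cox6b2 thus made up 31.6% (95% exact interval 27.9 to 35.4), 40.7% (35.7 to 45.8) and 36.7% (32.8 to 40.7) of Cox6b counts in null libraries 1, 2 and 3, and 34.8% (31.3 to 38.5) and 34.8% (30.7 to 39.1) in WT libraries 1 and 2. The share was 22.8% to 30.5% per kb of exons in null libraries and 25.4% and 25.5% in WT libraries, and it was highest in null library 2, where Cox6b1 was lowest. The counts cover whole genes, so they do not show which transcript of Cox6b2 was read. Cox7a2l made up 72.5 ± 2.86% of Cox7a counts in null (SD, n = 3) and 72.6 ± 2.24% in WT (SD, n = 2). Of the 3 genes for the c subunit of the ATP synthase rotor, which encode the same mature protein with different presequences, Atp5g3 made up 64.6 ± 1.07% of counts in null and 62.8 ± 1.52% in WT. In exact two-sided permutation tests over the libraries, which cannot go below p = 0.1, the 6 paralogue shares that varied had p between 0.4 and 1 and adjusted p of 1.

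**Figure D3:**
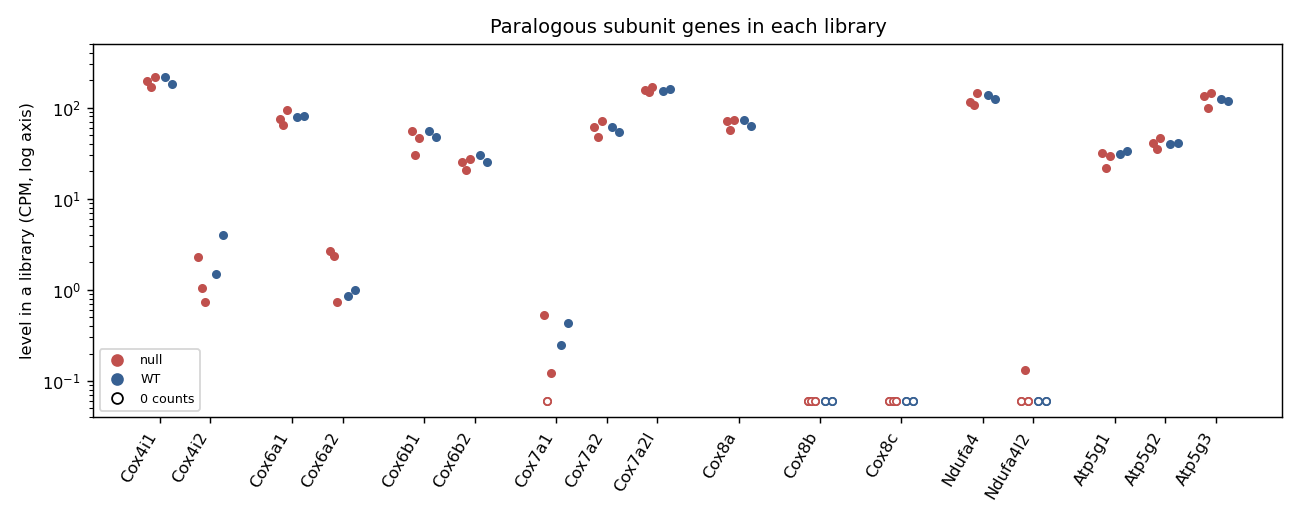
Level of paralogous subunit genes in each library in CPM (log axis), null points left of WT points for each gene and open points at the bottom for 0 counts. Cox4i1, Cox6a1, Cox8a and Ndufa4 lie far above their isoforms, Cox6b2 lies just under Cox6b1 with 20.7 to 29.9 CPM, and Cox7a2l lies above Cox7a2.

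The rest of ATP synthase also showed no difference past the threshold. The 5 F1 genes summed to 1919, 1822 and 2027 CPM in null libraries and 1843 and 1913 CPM in WT libraries. The 4 peripheral stalk genes (Atp5f1, Atp5h, Atp5j and Atp5o) summed to 430, 345 and 463 CPM in null libraries and 453 and 372 CPM in WT libraries. The 4 small membrane subunit genes (Atp5j2, Atp5k, Atp5l and Atp5mpl) summed to 247, 190 and 254 CPM in null libraries and 252 and 201 CPM in WT libraries. Atp5e, the smallest F1 subunit (chromosome 2, 174461072 to 174464105), varied most between libraries among them. It was at 50.8, 16.6 and 44.8 CPM in null libraries 1, 2 and 3 and 47.9 and 36.5 CPM in WT libraries 1 and 2, with null library 2 under every other value (edgeR log2 fold change -0.18 ± 0.33 SE, with an adjusted p of 0.893). The direction rested on that library, since without it the log2 fold change was 0.18 ± 0.16 (SE, adjusted p = 0.760 in edgeR). The c subunit genes Atp5g1, Atp5g2 and Atp5g3 summed to 206, 156 and 220 CPM in null libraries and 196 and 192 CPM in WT libraries. The lowest fold change was that of Atp5g1 (log2 -0.22 ± 0.17 SE, with an adjusted p of 0.680, or -0.067 ± 0.16 SE without null library 2) and the highest that of Atp5s (0.22 ± 0.21 SE, with an adjusted p of 0.742). Atp5s bears an ATP synthase name but its protein, known as factor B, is not a core subunit of the enzyme.

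The subunit genes varied together between libraries. The median of log2(CPM + 0.5) over the 81 genes, relative to each gene's mean over the 5 libraries, was 0.06, -0.27 and 0.16 in null libraries 1, 2 and 3 and 0.09 and -0.07 in WT libraries 1 and 2. 57 of the 81 genes (70.4%) had their lowest value in null library 2, as did 19.8% of all genes tested. The pattern varied with the length of the principal transcript, which had a median of 861 bases over the tested members and ran between 371 for Atp5k and 4715 for Atp5g1. In null library 2 the median deviation was -0.375 for the 18 members under 600 bases, -0.31 for the 29 between there and 1000 bases, -0.12 for the 14 up to 1500 bases, -0.10 for the 14 up to 2500 bases and -0.09 for the 6 beyond. All tested protein-coding genes of the same 5 classes had medians of -0.21, -0.16, -0.08, -0.03 and 0.05 in that library, the same order with smaller values. Across the 81 genes, Spearman's rho between length and deviation was -0.23, 0.47 and -0.40 in null libraries 1, 2 and 3 and -0.38 and 0.21 in WT libraries 1 and 2. These are descriptions across genes that share their libraries. Within complex III the median length was 535 bases for the 5 small subunits and 1774 for the core proteins, and the median deviation in null library 2 was -0.41 for the small subunits and -0.07 for the core proteins. Length did not sort every gene of complex III. Uqcrq, a small subunit of 1521 bases, was at -0.59 in that library, and Cyc1, of 1520 bases, at -0.43. Uqcrfs1, of 1363 bases, was at -0.08. The cause of the length pattern was not tested.

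**Figure D4:**
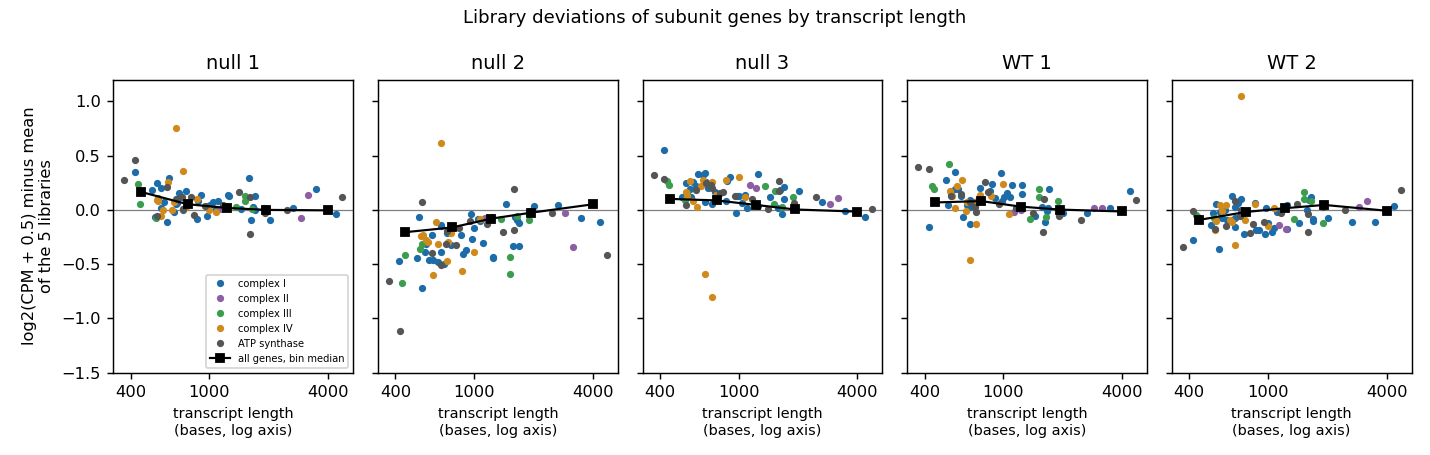
Deviation of each subunit gene from its mean over the 5 libraries (y axis, log2 of CPM + 0.5) against the length of its principal transcript (x axis, bases, log axis), 1 panel per library, coloured by complex. Black squares join the medians of all tested protein-coding genes in 5 length classes, drawn inside each class; in null library 2 both the subunit genes and the squares lie lowest for short transcripts, with class medians of -0.375 and -0.21 under 600 bases.

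Without null library 2 the medians of complexes I, III and IV changed sign, as did the fold changes of 33 of the 80 members that could be fitted, all of them negative with it and positive without it. Most members had their lowest value in null library 2, so leaving it out moves their fold changes up by construction. Cox6a2 was the 1 tested member left without a fit. In that fit the median log2 fold change of the members was 0.10 in place of -0.018, while that of all genes was -0.0016, and the summed level was 0.083 higher in null on the log2 scale in place of 0.0016. No member passed without it, where 2.38% of all genes were higher and 0.318% lower. The smallest edgeR adjusted p was 0.141, for Ndufb7 (log2 fold change 0.40 ± 0.12 SE in place of 0.18), named after its values were seen. In that edgeR fit Ndufb7 and Ndufa1 had unadjusted p of 0.0063 and 0.00854. Leaving out null library 3 or WT library 2 gave medians of -0.093 and -0.105. The 41 genes at or under 861 bases summed to 2502, 1911 and 2717 CPM in null libraries and 2601 and 2276 CPM in WT libraries. The 40 longer genes summed to 4740, 4362 and 5063 CPM in null libraries and 4692 and 4612 CPM in WT libraries.

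Other genes of mitochondrial metabolism were read beside these. Of 50 tested assembly factors, 19 genes of the TCA cycle and pyruvate dehydrogenase, 77 genes of the mitochondrial ribosome, 15 genes of electron carriers and ubiquinone synthesis and 18 transcription regulators, none passed in edgeR. At an unadjusted p under 0.05 stood 1 assembly factor, 1 TCA cycle gene and 1 regulator, where 12.8% of all genes tested did. These were Cox17, the copper chaperone of complex IV (edgeR log2 fold change 0.42 ± 0.18 SE, with an adjusted p of 0.343), Sucla2, a subunit of succinyl-CoA synthetase (0.38 ± 0.16 SE, with an adjusted p of 0.329), and Gabpb2 (0.32 ± 0.11 SE, with an adjusted p of 0.230), all named after their values were seen. The medians were 0.02 for assembly factors and -0.01 for both the TCA cycle and the mitochondrial ribosome. Cycs, the cytochrome c that carries electrons between complexes III and IV, was at 13.7, 8.05 and 14.3 CPM in null libraries and 18.8 and 14.4 CPM in WT libraries (edgeR log2 fold change -0.47 ± 0.25 SE, 95% interval -1.01 to 0.078, with an adjusted p of 0.477). All null values were below both WT values, an order held by 13.7% of all genes tested. Null library 3 (14.3 CPM) and WT library 2 (14.38 CPM) were nearly tied. Without null library 2 the log2 fold change of Cycs was -0.24 ± 0.21 (SE, adjusted p = 0.751 in edgeR). Tfam, which packages mitochondrial DNA and takes part in its transcription, was at 73.4, 70.3 and 74.96 CPM in null and 81.2 and 65.8 CPM in WT. The coactivator gene Ppargc1a was low, at 3.60, 1.98 and 4.07 CPM in null and 1.85 and 3.85 CPM in WT, and the nuclear receptor gene Esrra was at 10.5, 8.84 and 10.97 CPM in null and 10.8 and 11.1 CPM in WT.

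Cytosolic ribosomal protein genes were also low in null library 2, at every length. Their summed level was 47520, 33062 and 46843 CPM in null libraries and 48462 and 40837 CPM in WT libraries, lowest in null library 2 as for the subunit genes. None of 83 tested passed in edgeR, with 2 at an unadjusted p under 0.05, beside 12.8% of all genes tested. Their median deviation in null library 2 was -0.51 under 600 bases, -0.37 for the 8 genes between 1500 and 2500 bases and -0.32 for the 4 beyond, where all protein-coding genes were at -0.21, -0.03 and 0.05; the long genes of this list were thus low as well. The transcripts of mitochondrial DNA did not follow it: the 13 mRNA genes summed to 9408, 11436 and 11179 CPM in null libraries 1, 2 and 3 and 10905 and 7881 CPM in WT libraries 1 and 2, highest in null library 2 and lowest in WT library 2. Only 8 of the 13 had enough counts to be tested, and none of the 8 was lowest in null library 2. The sum came mostly from mt-Co1, the catalytic subunit of complex IV, at 5593, 6755 and 6224 CPM in null and 6447 and 4360 CPM in WT. It had 41976, 51188 and 50478 counts in null and 52379 and 30615 counts in WT. Its partners in the core of complex IV, mt-Co2 and mt-Co3, had at most 8 counts in any library. Nuclear and mitochondrial subunits of complex IV were therefore not compared. Of 20 proliferation genes, all had a positive log2 fold change (median 0.18), beside 6629 of all 13467 genes tested (median -0.0045). Rrm2, a subunit of ribonucleotide reductase, was the 1 that rose (0.97 ± 0.12 SE, with an adjusted p of 0.00109 in edgeR), where 2.15% of all genes were higher. At an unadjusted p under 0.05 stood 5 of the 20, against 12.8% of all genes tested.

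**Figure D5:**
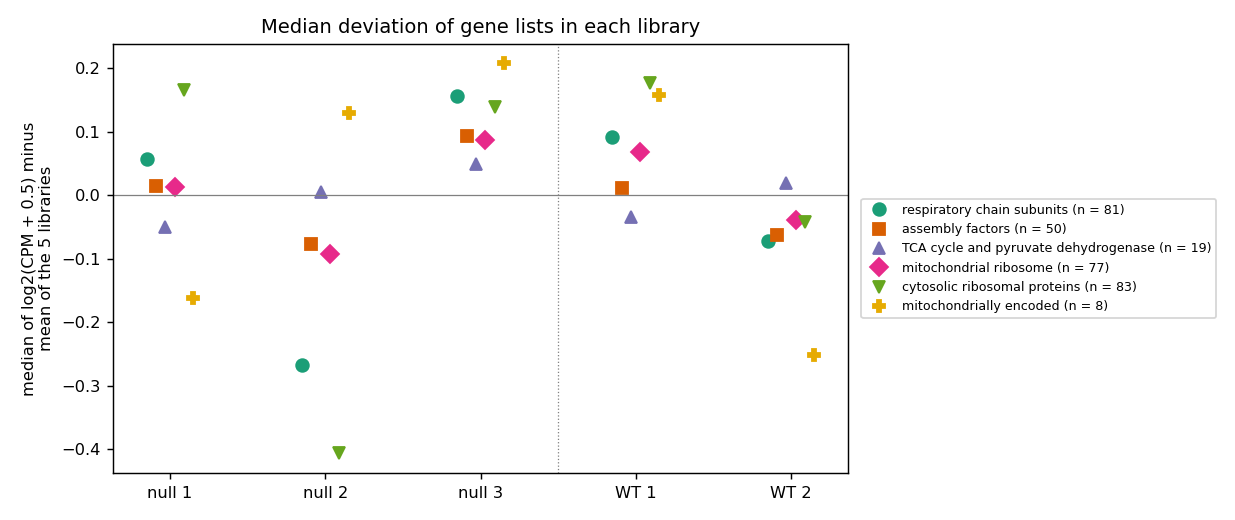
Median deviation of 6 gene lists from the mean of the 5 libraries (y axis, log2 of CPM + 0.5) in each library, null left of the dotted line and WT right of it. In null library 2 the subunit genes lie at -0.27 and the cytosolic ribosomal protein genes at -0.41, while the mitochondrially encoded genes lie at 0.13 and the TCA cycle genes near 0.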

How the data were processed

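The authors deposited raw counts for each gene and library as whole numbers without normalization. STAR, featureCounts and mm10 are named in the submitters' processing notes; the sources used here give no version, annotation release, strand setting or treatment of multiply matched reads. Libraries were made with a kit for small RNA amounts that removes unwanted transcripts with probes, per the labels' protocols, although the molecule is labelled polyA RNA. Of the identifiers, 99.5% matched GENCODE M21 (mm10), the source of symbols, coordinates and lengths. 30 of the 86 genes share exon bases with another gene (19 of them 100 or more), and pseudogene copies could take reads from others, so these counts are uncertain.

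Genes were kept with filterByExpr (13467), given TMM factors and compared by quasi-likelihood tests (edgeR 4.0.16, R 4.3.3) in a model of genotype alone, with 3 residual degrees of freedom and Benjamini-Hochberg adjustment over all genes kept; the threshold was 0.05. Log2 fold changes are null over WT, and standard errors and 95% intervals come from the F statistic. Library deviations use log2(CPM + 0.5). Lengths are those of the APPRIS principal transcript, and levels per kb use all exons unless stated. Lists were described by counts and medians, without a test. Alternatives were RLE and upper quartile factors, factors without mitochondrial genes, other filters, DESeq2 1.42.0, limma-voom (limma 3.58.1), a robust fit and each library left out. On counts simulated for null over WT with 13202 genes tested, 32.8% of genes changed 1.5-fold, 61.2% changed 2-fold and 89.4% changed 4-fold were recovered. Replicate numbers follow sample order and pair nothing. Named genes were the members past the threshold or with an unadjusted p under 0.05 (none), the 3 most abundant per kb and the extremes of fold change of each complex, the paralogues, and the regulators and checks; others are named as examples. The members and lists were chosen with earlier results of these data known. Intervals of shares and the limits set by 0 counts cover counting error only, since copies made by PCR were not told apart.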

Additional observations from a re-analysis of the deposited data

How the results depend on the processing

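No member passed the threshold under any of the 13 alternatives, left-out libraries included, and none passed at an adjusted p under 0.1 in the first fit; the smallest adjusted p of a member was 0.141, without null library 2. RLE and upper quartile factors, factors without mitochondrial genes, DESeq2, limma-voom and the robust fit kept both counts over all genes (289 higher, 45 lower) within 1.5 times. Over all genes, 602 were higher and 155 lower with no filter, 173 were higher with CPM of at least 1 in every library, and 81 were lower at an adjusted p under 0.1. With 1 library left out at a time, edgeR called between 32 and 316 genes higher and between 0 and 51 lower. Both counts were lowest without WT library 2, where 339 genes lay lower with an unadjusted p below 0.05 and no other tool was run. Fits without a WT library take the other to have the spread of the null libraries. Without WT library 1, 101 were higher, and without null library 3, 15 were lower. The log2 fold change of Gabbr1 ranged from -0.707 to -0.482 with each library left out, and the share of Cox4i2 in null minus WT from -1.43 to 0.0165 percentage points. Of 29 named members tested, 14 changed sign when some library was left out, without a call: Atp5b (-0.032 to 0.0613), Atp5c1 (-0.0361 to 0.0818), Atp5g2 (-0.0787 to 0.127), Atp5g3 (-0.0697 to 0.193), Cox4i1 (-0.15 to 0.0725), Cox6a1 (-0.196 to 0.0895), Cox7a2 (-0.0927 to 0.197), Cox7a2l (-0.0369 to 0.0691), Cox8a (-0.135 to 0.0885), Ndufa4 (-0.236 to 0.0024), Ndufc2 (-0.17 to 0.145), Sdhc (-0.151 to 0.0751), Uqcr10 (-0.237 to 0.167) and Uqcrh (-0.149 to 0.105). The cause was not tested. No paired analysis was possible because the labels give no replicate numbers shared between the genotypes. With 2 WT libraries the counts limit Cox4i2 and Cox6a2 most, at 6 to 28 counts per library.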
